A study of Mus musculus with 18 samples.

Results

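The genes described here are 10 members of the fibroblast growth factor (FGF) system: the ligands Fgf1, Fgf2, Fgf7, Fgf9, Fgf10 and Fgf18, the receptors Fgfr1, Fgfr2 and Fgfr3, and the receptor-like gene Fgfrl1. They were taken by name and are 10 of the 18193 genes that the arrays measured. Expression was measured in sorted mouse dermal cells on 18 Affymetrix mouse genome arrays, in 6 groups of 3. In the R26mTmG reporter carried by all groups, a cell turns from red (RFP) to green (GFP) fluorescence once Cre has acted in it or in an ancestor. En1Cre acts in cells that express Engrailed-1, and Wnt1Cre acts in cells that express Wnt1, among them the neural crest.

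EPF cells were green, RFP-negative cells, and ENF cells were red, GFP-negative cells, both from the dorsal dermis of En1Cre; R26mTmG mice. ENF cells are therefore all the remaining cells of the gate and not a single lineage. Oral cells (from oral mucosa) and Cranial cells (from cranial dermis) were green cells of Wnt1Cre; R26mTmG mice. Ventral and Dorsal cells were green cells of the En1Cre; R26mTmG line, from the dermis of the belly side and of the back. All groups were untreated, and the sort left out cells positive for EpCAM, CD45, CD31, Tie2, DAPI or a marker spelled Tie119. By the labels, the mice were at postnatal day 56 for EPF and ENF cells and at day 30 for Oral, Cranial, Ventral and Dorsal cells, whereas the protocol text gives 30 days for EPF and ENF cells, and the sources used here do not settle which holds. Nothing in them says whether the 3 samples of a group came from separate animals or pools, so p-values measure the spread between these samples, which may be technical.

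FGFs are secreted proteins that bind receptor tyrosine kinases on the cell surface, with heparan sulfate as a cofactor for most of them. The receptors signal through adaptors to the Ras and MAP kinase relay, which switches on target genes, among them the Sprouty inhibitors that damp the same signal. In skin, fibroblasts make Fgf7 and Fgf10, whose main receptor is the epithelial splice form of Fgfr2 on keratinocytes. Fgf9 and Fgf18 act mainly on the splice forms of the receptors found in mesenchyme, and Fgf18 is known in mouse hair follicles as a factor that holds the resting phase of the hair cycle. Fgfrl1 binds FGFs but lacks the kinase domain of the other receptors.

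All values are log2 expression values on the scale deposited by the authors, and a difference is the first-named group minus the second on that scale. The lower quartile of all probe sets lay between 3.93 and 4.10 on the 18 arrays, and values near that band are described as near background. The fibroblast genes of a marker list (Pdgfra, Col1a1 and 4 others) averaged 10.46 to 13.55 per array, and the endothelial genes averaged 4.71 to 5.44 per array. Of the 6 endothelial genes, 4 had group means at or under background in EPF cells and 3 in ENF cells. Kdr stood above the others, with means of 8.38 in EPF and 8.87 in ENF cells, against 6.55 to 7.28 in the site groups. The mean of 10 keratinocyte genes was 7.54 to 9.78 on ENF arrays, above the 4.49 to 5.13 of the site arrays. On EPF 1, 2 and 3 it was 7.96, 4.82 and 6.45, so EPF 2 lay within the range of the site arrays. The array Dorsal 1 stood apart in its group. It had the highest keratinocyte mean among the site arrays (5.13). Its leukocyte mean was the lowest (5.10, against 5.76 to 6.13 on the other site arrays). Single genes weighed heavily in both means. The leukocyte gene Laptm5 was at 7.31, against 11.67 to 12.57 on the other site arrays. The keratinocyte gene Dsp was at 5.92, against 3.20 to 3.69, while Trp63 (3.50) and Perp (4.45) were lowest on Dorsal 1. Results that rest on this array are also given without it. Ventral 1 stood apart in its group as well, with a fibroblast mean of 10.46, against 11.74 and 11.71 on Ventral 2 and 3. Lum was at 5.65 on it, against 9.55 and 9.62, and Adipoq at 3.53, against 6.39 and 6.50. Results without Ventral 1 enter only the counts of settings at the end of the report. Because the samples are bulk RNA of sorted cells, fewer cells of a type and less RNA per cell cannot be told apart in any result below.

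**Figure D1:**
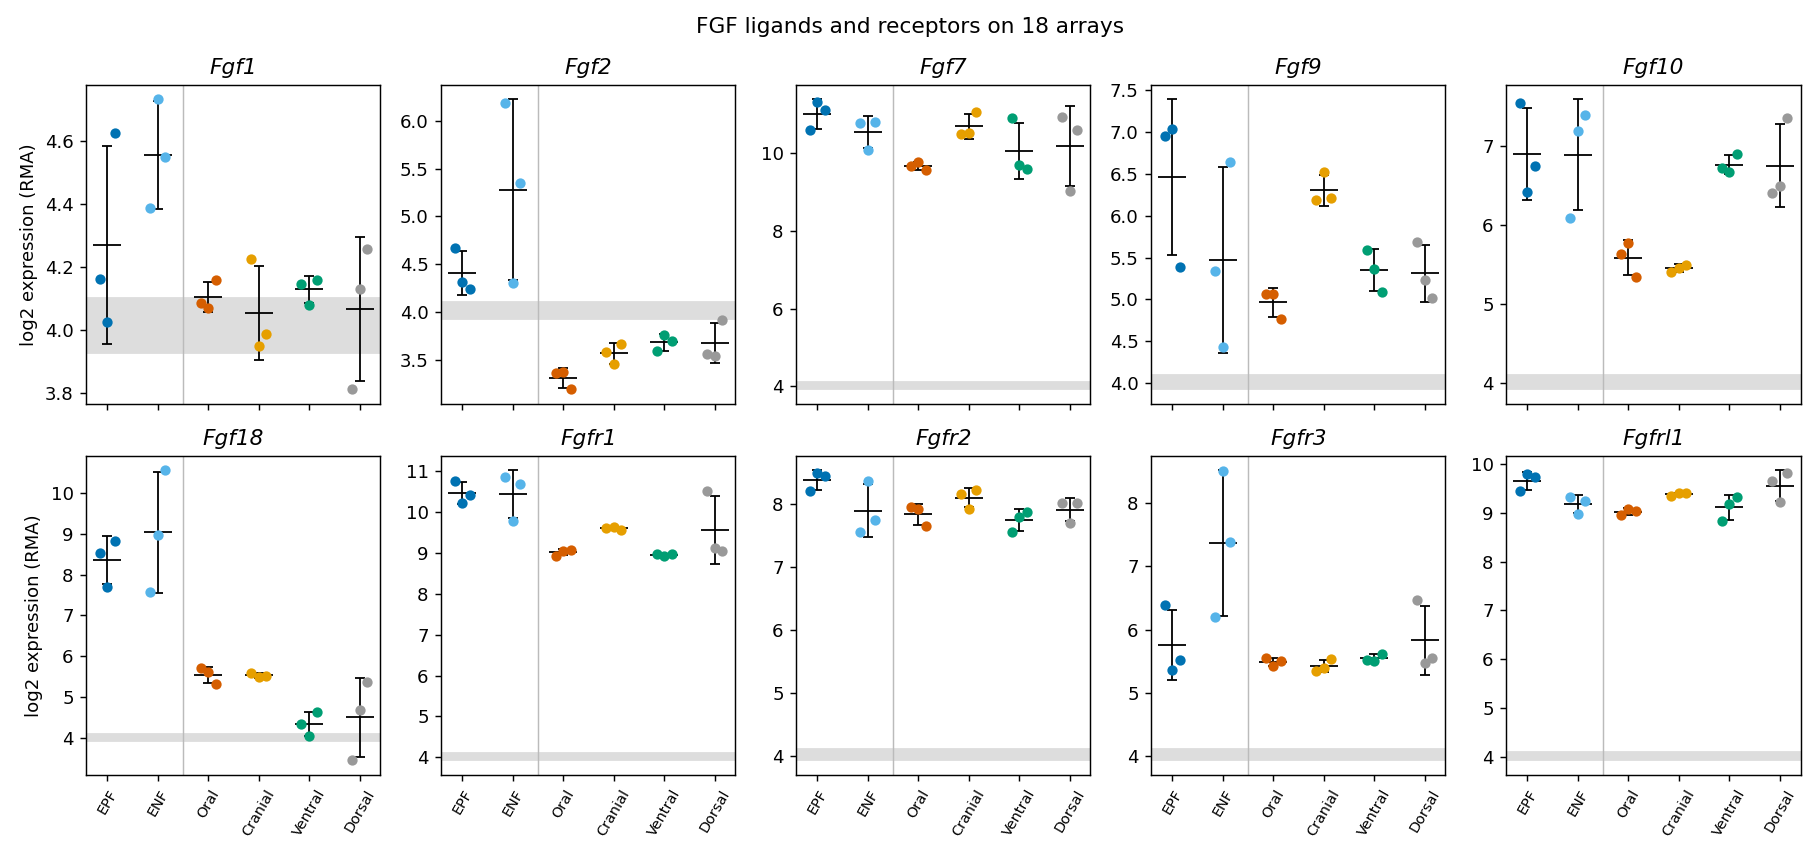
Log2 expression of each of the 10 genes (y axis, own scale per panel) on all 18 arrays, by group on the x axis from EPF and ENF to Oral, Cranial, Ventral and Dorsal. Points are arrays, bars are the mean ± SD of 3 arrays, and the grey band (3.93 to 4.10) is the range of the arrays' lower quartiles. Fgf10 was lower on all 6 Oral and Cranial arrays than on all 6 Ventral and Dorsal arrays, and Fgf18 was at 7.58 or more on every EPF and ENF array and at 5.71 or less on every site array.

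Fgf10 was the member whose level divided the body sites most clearly. Like Fgf18, it had only 1 single-symbol probe set, so no other probe set could check it. It was at 5.64, 5.78 and 5.35 on the Oral arrays and at 5.41, 5.46 and 5.50 on the Cranial arrays. It was at 6.73, 6.67 and 6.90 on the Ventral arrays and at 6.40, 6.50 and 7.35 on the Dorsal arrays. The highest array of the head, at 5.78, lay below the lowest of the trunk, at 6.40, and Oral and Cranial arrays overlapped each other, as did Ventral and Dorsal arrays. On EPF arrays the gene was at 7.55, 6.42 and 6.75, against 6.10, 7.19 and 7.39 on ENF arrays, with full overlap.

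Each of the 4 head-against-trunk comparisons of Fgf10 passed the test. The difference was -1.29 ± 0.22 (SE) for Cranial against Dorsal, or 2.45-fold lower (limma, adjusted p = 0.00284). It was -1.16 ± 0.22 for Oral against Dorsal (2.24-fold lower, limma adjusted p = 0.00471). Against Ventral it was -1.18 ± 0.22 for Oral (limma adjusted p = 0.00491) and -1.31 ± 0.22 for Cranial (limma adjusted p = 0.00265). These 4 comparisons share arrays and are not independent of each other. A contrast of all 6 Oral and Cranial arrays with all 6 Ventral and Dorsal arrays, added after the data had been seen, gave -1.24 ± 0.15 (2.36-fold lower, limma adjusted p = 0.000195). Without the array Dorsal 1 it gave -1.32. Cre line and body region coincide in these comparisons, so lineage and site cannot be told apart.

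Adipocyte genes moved in the same direction, and their part in the Fgf10 difference was not tested. Of 4 measured adipocyte markers, 3 were called lower in Oral and Cranial than in Ventral and Dorsal (Fabp4 at -1.79, Adipoq and Lep). The summed linear level of the list was 456 to 560 on Oral arrays and 320 to 464 on Cranial arrays, against 721 to 1237 on Ventral arrays and 1116 to 4284 on Dorsal arrays. In Oral and Cranial cells 3 of the 4 markers had group means at or under background, against 2 of 4 in Ventral and Dorsal cells. Adipoq was under background in the head groups and Lep in every site group (3.39 to 3.71), so the size of their differences is not read. Of 10 keratinocyte genes, most near background at the sites, 1 was called higher and 5 lower in the same contrast. On Dorsal 1, 2 and 3 the adipocyte mean was 6.80, 5.40 and 6.48, and Fgf10 was at 6.40, 6.50 and 7.35.

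Fgf18, a ligand of mesenchymal receptor forms, ran the other way among the sites. It was at 5.71, 5.61 and 5.31 on Oral arrays and at 5.60, 5.49 and 5.52 on Cranial arrays. Ventral arrays gave 4.36, 4.07 and 4.65, and Dorsal arrays gave 3.46, 4.68 and 5.38. The head arrays lay close together, and the trunk arrays spread from below background to the level of the lowest head array: Dorsal 3 (5.38) exceeded Oral 3 (5.31).

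No single pair of sites passed the test for Fgf18. The difference was 1.03 ± 0.37 (SE) for Cranial against Dorsal and 1.04 ± 0.37 for Oral against Dorsal (limma adjusted p = 0.0792 and 0.0832). It was 1.19 ± 0.37 for Oral against Ventral and 1.18 ± 0.37 for Cranial against Ventral (limma adjusted p = 0.0563 and 0.0505). In the contrast of all head arrays with all trunk arrays, added after the data had been seen, Fgf18 was higher than in the trunk by 1.11 ± 0.26 (2.16-fold, limma adjusted p = 0.00885). Without Dorsal 1, whose value was the lowest of all, the difference in that contrast was 0.85 (limma adjusted p = 0.000758). For Cranial against Dorsal it was 0.51 without Dorsal 1 and 1.46 without Dorsal 3, so the size of the Dorsal difference rests on single arrays. Ventral 2 (4.07) and Dorsal 1 (3.46) lay in or under the background band, which limits the reading of the 2.16-fold value.

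The windows of 250 bases upstream of the RefSeq starts of these 2 genes are printed because Fgf10 and Fgf18 were the members called in the contrast of head and trunk, in opposite directions. They come from RefSeq (mouse GRCm38.p6), read 5′ to 3′ on the gene's own strand; the arrays' values carry no genome build. The Fgf10 window is chr13:118714449-118714698 on the plus strand, and the Fgf18 window is chr11:33147401-33147650 on the minus strand. Capitals mark a GC box, here on the opposite strand.
Fgf10: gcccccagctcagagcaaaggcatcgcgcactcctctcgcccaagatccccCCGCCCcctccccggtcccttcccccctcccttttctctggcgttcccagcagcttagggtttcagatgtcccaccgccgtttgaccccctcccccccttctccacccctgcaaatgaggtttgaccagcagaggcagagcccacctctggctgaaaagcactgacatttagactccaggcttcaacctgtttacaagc
Fgf18: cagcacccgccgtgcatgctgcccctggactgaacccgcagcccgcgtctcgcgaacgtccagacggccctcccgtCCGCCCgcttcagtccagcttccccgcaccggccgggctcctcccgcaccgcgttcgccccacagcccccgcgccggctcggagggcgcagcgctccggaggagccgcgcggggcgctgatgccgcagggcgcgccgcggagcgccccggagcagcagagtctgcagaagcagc
Both windows were rich in G and C, at 61.2% for Fgf10 and 77.2% for Fgf18, against a median of 52.4% over 32851 windows of the same length. Of 4 motifs searched on both strands, the GC box GGGCGG was found once in each window, at -199 to -194 from the start for Fgf10 and at -174 to -169 for Fgf18. The GC box was present in 32.7% of all windows. The TATA box TATAAA (12.4% of all windows), the CCAAT box CCAAT (33.8%) and the TCF/LEF core CTTTGAT (3.21%) were not found in either window. A match of letters describes the sequence only, and any part of it in the differences between sites was not tested.

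**Figure D2:**
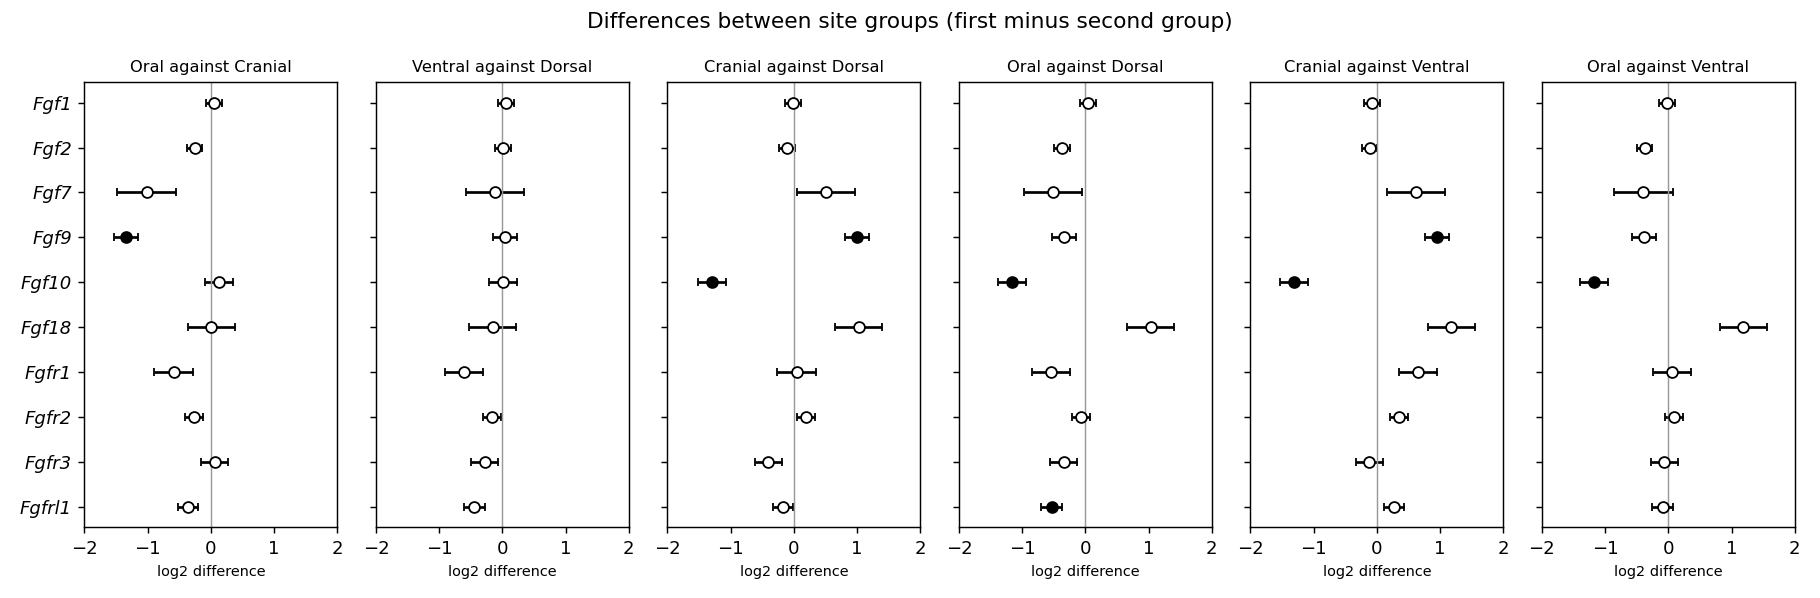
Log2 difference of each of the 10 genes (x axis) in the 6 comparisons between body sites, 1 panel per comparison; bars are ± SE from limma, and filled points passed the test at an adjusted p under 0.05. Fgf10 lies between -1.31 and -1.16 in the 4 comparisons of a head group with a trunk group, and Fgf9 is at -1.34 in Oral against Cranial.

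Fgf9, which acts mainly on mesenchymal receptor forms, was highest in Cranial cells by the probe set used. Its values were 5.07, 5.07 and 4.77 on Oral arrays and 6.19, 6.52 and 6.21 on Cranial arrays. They were 5.59, 5.36 and 5.09 on Ventral arrays, and 5.69, 5.23 and 5.02 on Dorsal arrays. The lowest Cranial array stood above every array of the other sites, and the Oral arrays were the lowest group.

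Fgf9 was 2.53-fold lower in Oral than in Cranial, a difference of -1.34 ± 0.19 (SE, limma adjusted p = 0.00463). It was higher in Cranial than in Dorsal by 0.99 ± 0.19 and higher in Cranial than in Ventral by 0.96 ± 0.19 (limma adjusted p = 0.00535 and 0.00670). The second probe set of Fgf9 showed no such peak: its means were 5.29 in Oral, 5.27 in Cranial, 5.64 in Ventral and 5.51 in Dorsal cells. By that probe set Fgf9 was lower in the head groups than in the trunk groups, with a difference of -0.30 ± 0.09 (limma adjusted p = 0.0214). The probe sets therefore disagree, and the files do not say which transcripts each one reads. Of the marker lists, 3 genes were called in Oral against Cranial, all in the direction of Fgf9. Perp, an adhesion gene, was 1 of 10 keratinocyte genes called (-1.43), Kcnj8, a potassium channel gene of pericytes, 1 of 6 mural genes (-1.51), and Dcn, the decorin gene, 1 of 6 fibroblast genes (-1.91). Kcnj8 peaked in Cranial cells as Fgf9 did, with means of 5.14 in Oral, 6.65 in Cranial, 5.54 in Ventral and 5.43 in Dorsal cells, and so did Perp, at 5.49, 6.92, 4.73 and 4.51 in the same order. The mean over the 6 mural genes did not peak there, at 7.40 to 7.57 on Oral arrays and 7.46 to 7.57 on Cranial arrays. The part of these cell types in the Fgf9 difference was not tested.

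Fgf7, the other fibroblast ligand for the epithelial Fgfr2, was far above background on every array, from 9.02 to 11.33. It was at 9.68, 9.78 and 9.56 on Oral arrays and at 10.48, 10.53 and 11.06 on Cranial arrays. Ventral arrays gave 10.90, 9.69 and 9.61, and Dorsal arrays gave 10.94, 9.02 and 10.59. All Oral arrays lay below all Cranial arrays, but the trunk arrays spread over the ranges of both. The Oral against Cranial difference was -1.02 ± 0.46 (SE) and did not pass the test (limma adjusted p = 0.604). The second probe set of Fgf7 put Oral lowest at 6.89, with Cranial at 7.54, Ventral at 7.91 and Dorsal at 7.90, and by that probe set Fgf7 was lower in the head groups than in the trunk groups (-0.69 ± 0.23, limma adjusted p = 0.0389). By the probe set used, the mean of the head groups was 10.18 and that of the trunk groups 10.13.

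Fgf2 and Fgf1, broadly acting ligands without a classical secretion signal, were low in the sorted site cells. Fgf2 was at 3.19 to 3.67 on head arrays and at 3.54 to 3.92 on trunk arrays, all under the background band, so no difference between sites is read from it. Fgf1 was at 3.95 to 4.23 on head arrays and at 3.81 to 4.26 on trunk arrays, and its 3 probe sets were all near background there. Fgf2 left the background band on some back dermis arrays, which are described with the comparison of EPF and ENF cells.

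Fgfr1, the main FGF receptor of mesenchymal cells, was high on every array. It was at 8.94, 9.04 and 9.08 on Oral arrays and at 9.62, 9.64 and 9.56 on Cranial arrays. Ventral arrays gave 8.97, 8.93 and 8.98, and Dorsal arrays gave 10.53, 9.12 and 9.04. Cranial arrays were above all Oral and Ventral arrays, and Dorsal 1 stood alone above the rest of its group. No comparison between sites was called for this probe set (Cranial against Ventral 0.65 ± 0.31, limma adjusted p = 0.161). Without Dorsal 1, Fgfr1 was called in Cranial against Dorsal and in the contrast of head and trunk.

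The other Fgfr1 probe sets gave different pictures. A dimmer one was at 5.37 to 6.19 on all head arrays and at 4.42 to 5.10 on all trunk arrays, with no overlap, and was higher in the head groups by 0.87 ± 0.15 (limma adjusted p = 0.00127). The last one ran from 6.48 to 7.04 over all site arrays, and Dorsal 1, highest by the probe set used, was its lowest array. In the dimmer one Dorsal 1 was the highest Dorsal array (5.05, against 4.42 and 4.79 on the others) but within the range of the Ventral arrays.

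**Figure D3:**
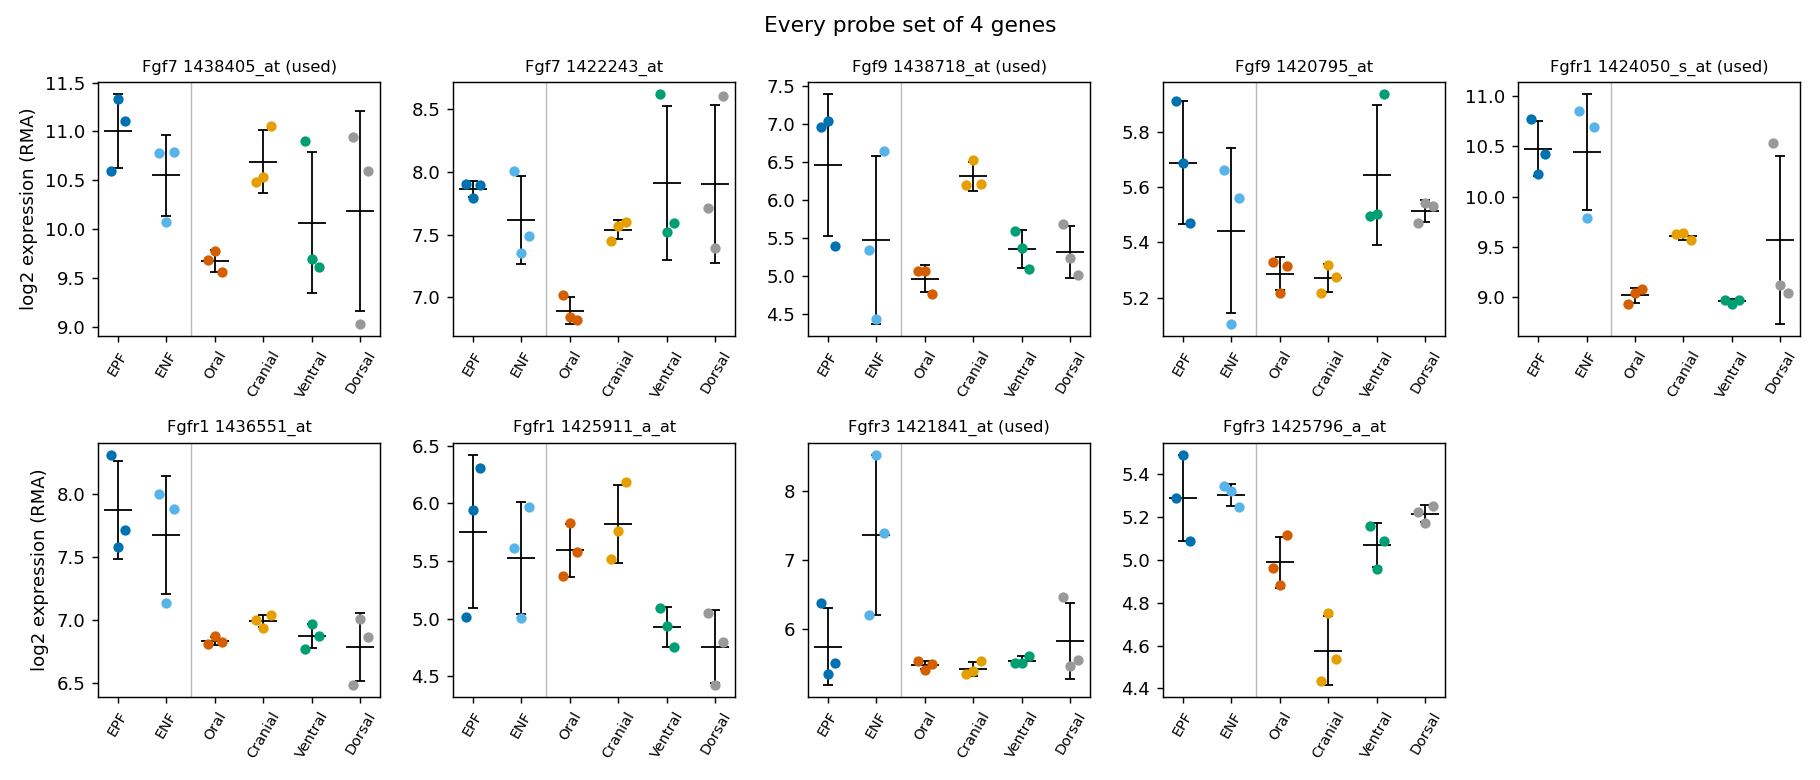
Log2 values of every probe set of Fgf7, Fgf9, Fgfr1 and Fgfr3 (y axis) on the 18 arrays, by group on the x axis, 1 panel per probe set, the one used in the tests marked as used; points are arrays and bars the mean ± SD of 3 arrays. The Cranial peak of Fgf9 (6.31 against 4.97 to 5.35 in the other site groups) and the high ENF values of Fgfr3 appear in the probe set used and not in the other.

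Fgfr2, whose epithelial form receives Fgf7 and Fgf10, was not called between any sites by the probe set used. It was at 7.96, 7.91 and 7.64 on Oral arrays, 8.16, 7.92 and 8.22 on Cranial arrays, 7.56, 7.80 and 7.88 on Ventral arrays, and 8.01, 7.70 and 8.01 on Dorsal arrays. The most distant groups were Cranial and Ventral, whose arrays did not overlap, at 0.36 ± 0.14 (limma adjusted p = 0.107). Its 2 other probe sets were dimmer, and both were lower in Oral and Cranial than in Ventral and Dorsal in the contrast added after the data had been seen (-0.42 ± 0.10 and -0.21 ± 0.07, limma adjusted p = 0.00958 and 0.0484), against 0.14 ± 0.10 by the probe set used, which was not called. The first of them was also lower in Cranial and in Oral than in Ventral, at -0.65 ± 0.14 and -0.59 ± 0.14 (limma adjusted p = 0.0111 and 0.0187). The files do not say which splice form any of the 3 probe sets reads.

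Fgfr3, a receptor known in keratinocytes and cartilage, was at 5.35 to 5.62 on 11 of the 12 site arrays. The exception was Dorsal 1 at 6.46. That array had the highest keratinocyte mean of the site arrays but the lowest Trp63 (3.50) and Perp (4.45). Any part of keratinocyte RNA in its Fgfr3 value was not tested. No site comparison was called for it. Its second probe set was lower in Cranial (4.58) than in Dorsal (5.22), at -0.64 ± 0.11 (limma adjusted p = 0.00317), and lower in Cranial than in Ventral, at -0.49 ± 0.11 (limma adjusted p = 0.0122). By that probe set Fgfr3 was also lower in the head groups than in the trunk groups, in the contrast added after the data had been seen (-0.36 ± 0.08, limma adjusted p = 0.00559). Oral against Dorsal (-0.23) and Oral against Ventral (-0.08) were not called by it.

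Fgfrl1, the receptor without a kinase domain, was at 8.96, 9.09 and 9.04 on Oral arrays and at 9.36, 9.41 and 9.40 on Cranial arrays. Ventral arrays gave 8.84, 9.18 and 9.33, and Dorsal arrays gave 9.65, 9.22 and 9.82. The 3 Oral arrays were below the 3 Dorsal arrays, with a difference of -0.53 ± 0.16 (SE, 1.45-fold lower), which passed the test narrowly (limma adjusted p = 0.0460). The call held in 7 of 17 settings and was lost without any single Oral array, without Dorsal 1 (limma adjusted p = 0.0583) and without Dorsal 3. By the second probe set the difference was -0.18 and was not called.

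Calls among the members were counted beside those among all genes. In Oral against Cranial 1 of 10 members was called, where 1.14% of all genes were. In Ventral against Dorsal 0 members were called, where 0.0275% of all genes were, and limma's unadjusted p was under 0.05 for 1 member (Fgfrl1). Cranial against Dorsal had 2 members called (18.7% of all genes), and Cranial against Ventral also had 2 (17.9% of all genes), in both cases Fgf9 higher and Fgf10 lower. Oral against Dorsal had 2, Fgf10 and Fgfrl1, both lower (16.8% of all genes), and Oral against Ventral had 1, Fgf10 (14.6% of all genes). The contrast of Oral and Cranial with Ventral and Dorsal had 2, Fgf10 lower and Fgf18 higher (32.1% of all genes). Without Dorsal 1 it had 5, the others being Fgf9, Fgfr1 and Fgf2, the last of these under background; calls among all genes also increased, to 8875, against 5831 with that array. With 10 members, 1 or 2 calls in a pair of a head and a trunk group is a share near that of all genes.

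EPF and ENF cells, both from dorsal dermis, were compared to ask how the Engrailed lineage differs from the remaining cells. No member was called, where 0.308% of all genes were, and limma's unadjusted p was under 0.05 for 2 members, Fgfr3 and Fgfrl1. Of all genes, 1967 had an unadjusted p under 0.05 and 56 passed the adjustment.

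Fgfr3 had the widest gap of the members in this comparison. It was at 6.38, 5.35 and 5.51 on EPF arrays, against 6.20, 8.51 and 7.39 on ENF arrays. ENF 2 and ENF 3 stood above all EPF arrays, while ENF 1 lay below EPF 1. The difference was -1.62 ± 0.55 (SE, limma adjusted p = 0.342). The second probe set of Fgfr3 ran from 5.09 to 5.49 on these 6 arrays and showed no such gap.

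Keratinocyte genes moved with Fgfr3. Their mean was 7.96, 4.82 and 6.45 on the EPF arrays, against 7.54, 9.57 and 9.78 on the ENF arrays. The 2 ENF arrays with the highest Fgfr3 also had the highest keratinocyte means, and the EPF array with the highest Fgfr3 had the highest mean of its group. The summed linear level of the 10 keratinocyte genes was 1086 to 9389 on EPF arrays and 4163 to 25190 on ENF arrays. None of the 10 had a group mean at or under background in either group, but the EPF arrays differed. On EPF 2, Dsp (3.38), Cdh1 (3.38), Krt15 (3.91) and Perp (3.94) lay in or under the background band, whereas Dsp was at 11.17 and Perp at 11.78 on EPF 1. In the test 1 of the 10 was called, Trp63, the epidermal master regulator, at -4.13. Other marker lists moved as well. Of 6 skeletal muscle genes 2 were called lower in EPF than in ENF, Myf5 (-4.97) and Acta1 (-2.35), and the list averaged 5.48, 5.12 and 5.17 on EPF arrays, against 6.61, 6.37 and 7.38 on ENF arrays. Its summed linear level was 340.5 to 461 on EPF arrays and 607 to 1241 on ENF arrays. Of 6 mural genes 2 were called higher in EPF, Myh11 (2.29) and Acta2 (1.67), with list means of 9.48 to 9.72 on EPF arrays and 7.70 to 8.20 on ENF arrays. The part of keratinocyte, muscle or mural RNA in the values of Fgfr3 and the other members was not tested.

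**Figure D4:**
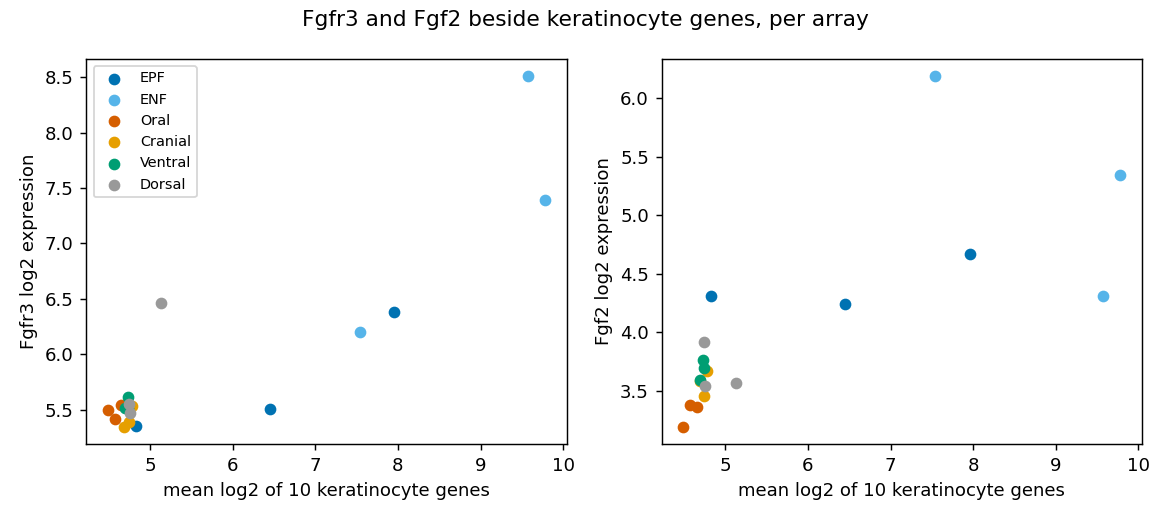
Log2 expression of Fgfr3 and of Fgf2 (y axis, 1 panel each) against the mean log2 expression of 10 keratinocyte genes (x axis) on the 18 arrays, with a colour per group. Fgfr3 reaches 8.51 and 7.39 on the 2 arrays with keratinocyte means of 9.57 and 9.78, both ENF; Fgf2 is highest (6.19) on ENF 1, whose keratinocyte mean is 7.54.

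Fgf2 was at 4.67, 4.31 and 4.24 on EPF arrays, against 6.19, 4.31 and 5.34 on ENF arrays. ENF 1 and ENF 3 stood above all EPF arrays and ENF 2 among them, and the difference of -0.87 ± 0.43 (SE) did not pass the test (limma adjusted p = 0.520). On ENF 1, 2 and 3 the keratinocyte mean was 7.54, 9.57 and 9.78, and the muscle mean was 6.61, 6.37 and 7.38. The part of either cell type in the Fgf2 values was not tested. Fgf1 was at 4.16, 4.03 and 4.62 on EPF arrays, against 4.39, 4.73 and 4.55 on ENF arrays, a difference of -0.29. Another Fgf1 probe set went the other way without overlap, at 4.31, 4.23 and 5.03 on EPF arrays, against 4.15, 4.03 and 4.07 on ENF arrays. Its difference of 0.44 ± 0.23 (SE) was not called (limma adjusted p = 0.563), and the last Fgf1 probe set gave -0.05. Most of these values were near background.

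By the probe sets used, Fgfrl1 was the only member whose EPF and ENF arrays did not overlap. It was at 9.46, 9.79 and 9.73 on EPF arrays, against 9.33, 8.98 and 9.24 on ENF arrays. The difference was 0.47 ± 0.17 (SE, 1.39-fold) and did not pass the test (limma adjusted p = 0.368). Its second probe set gave 6.59, 7.08 and 7.02 on EPF arrays, against 6.75, 6.28 and 6.43 on ENF arrays, with overlap through ENF 1.

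The remaining ligands differed between EPF and ENF cells by less than the spread of their arrays allowed the test to call. Fgf9 was at 6.96, 7.04 and 5.39 on EPF arrays, against 5.34, 4.44 and 6.64 on ENF arrays, so that 1 array of each group lay among the other group. Fgf18 was at 8.53, 7.69 and 8.82 on EPF arrays, against 7.58, 8.97 and 10.55 on ENF arrays, with the single highest value on ENF 3. Fgf7 was at 10.59, 11.33 and 11.10 on EPF arrays, against 10.78, 10.07 and 10.79 on ENF arrays. The differences were 0.99 ± 0.62 for Fgf9 and -0.68 ± 0.68 for Fgf18 (SE, limma adjusted p = 0.623 and 0.778). Without ENF 3 the Fgf18 difference turned to 0.08.

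Among the receptors, Fgfr1 was at 10.77, 10.23 and 10.43 on EPF arrays, against 10.86, 9.78 and 10.70 on ENF arrays, a full overlap. Fgfr2 was at 8.21, 8.50 and 8.44 on EPF arrays, against 7.56, 8.36 and 7.75 on ENF arrays. ENF 2 lay within the EPF range of Fgfr2 and the other ENF arrays below it, and the difference of 0.49 ± 0.23 (SE) did not pass the test (limma adjusted p = 0.501).

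EPF and Dorsal cells carry the same description in the labels, green cells from the dorsal dermis of the En1Cre line, apart from the labelled age. They lie in sets of arrays that differ as a whole: across the EPF and ENF set and the site set, arrays correlated at 0.872 to 0.926, against 0.962 to 0.988 among EPF and ENF arrays and 0.946 to 0.998 among site arrays. Labelled age and array set cannot be told apart, so the values are given side by side with no test. Of the 10 members, Fgf18 and Fgf9 had group means at least 2-fold apart, where 17.8% of all genes did.

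Fgf18 showed by far the widest gap, at 8.53, 7.69 and 8.82 on EPF arrays, against 3.46, 4.68 and 5.38 on Dorsal arrays. Group means were 8.35 ± 0.59 in EPF and 4.51 ± 0.97 in Dorsal cells (SD, n = 3 each), 3.84 apart, where the median over all genes was 0.01. The lowest EPF array stood above the highest Dorsal array by more than the whole spread of EPF. Fgf9 was 1.15 higher in EPF, Fgfr1 0.91, Fgf7 0.82 and Fgf2 0.73. Fgf10 was 0.15 higher in EPF and Fgfrl1 0.10 higher, both within the spread of the arrays. Fgfr3 was at 5.75 ± 0.56 in EPF cells, against 5.83 ± 0.55 in Dorsal cells (SD, n = 3 each), within the spread as well.

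Beyond the members, 75 other genes of the FGF system were measured: other ligands, coreceptors, heparan sulfate genes, adaptors and relay kinases, and feedback inhibitors or targets. None was called in EPF against ENF, Oral against Cranial or Ventral against Dorsal, where limma's unadjusted p was under 0.05 for 12, 10 and 6 of them. In Cranial against Dorsal 16 were called higher and 3 lower, where 2037 of all genes were higher and 1356 lower. In Oral against Dorsal 15 were higher and 7 lower (1918 and 1147 of all genes). In Oral against Ventral 15 were higher and 3 lower (1881 and 784 of all genes), and in Cranial against Ventral 20 were higher and 7 lower (2123 and 1128 of all genes). In the contrast of head and trunk added after the data had been seen, 23 were called higher and 12 lower (3302 and 2529 of all genes). More genes were thus called higher than lower among all genes too.

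Among the other ligands, 1 of 16 was called higher and 5 lower in Oral and Cranial than in Ventral and Dorsal, with a median difference of -0.19 against -0.05 over all genes. The gene called higher was Fgf21, an endocrine FGF, at 0.79 ± 0.15 (SE, limma adjusted p = 0.00228). Fgf13, an intracellular FGF homolog that binds sodium channels, was lower, at -0.54. Fgf17 and Fgf5, a gene known in mouse to inhibit hair growth, were also called lower but lay in or near the background band in the head groups, Fgf17 at 4.09 in Oral and 3.91 in Cranial cells and Fgf5 at 4.21 in Oral and 4.01 in Cranial cells, so no size is read from them.

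Of 16 feedback inhibitors and targets, 9 were called higher and 3 lower in the head groups, with a median of 0.49 against -0.05 over all genes. Spry2, a Sprouty inhibitor, was at 8.62, 8.91 and 8.95 on Oral arrays and 9.30, 9.24 and 9.40 on Cranial arrays. It was at 6.57, 7.33 and 7.50 on Ventral arrays and 7.27, 7.54 and 8.02 on Dorsal arrays, so that no head array overlapped a trunk array. Its difference in the contrast of head and trunk was 1.70 ± 0.17 (3.25-fold, limma adjusted p = 4.68e-05). Myc, a growth regulator that many signals induce, was 2.61 ± 0.20 higher (6.11-fold, limma adjusted p = 7.17e-06). Ccnd1, a cell cycle cyclin, and Etv4, an ETS factor of the FGF response, were lower, at -0.59 and -0.30. The Ccnd1 means were 8.75 in Oral, 8.09 in Cranial, 9.58 in Ventral and 8.44 in Dorsal cells. Oral thus lay above Dorsal, and Ventral was the highest group.

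Of 12 measured adaptor and relay genes, 5 were called higher and 0 lower in the same contrast. Gab1, a docking protein of receptor signalling, was 1.23 ± 0.10 higher, and Braf, a kinase of the MAP kinase relay, was 1.21 ± 0.08 higher (limma adjusted p = 1.71e-05 and 3.79e-06). Of 10 other receptors and coreceptors, 4 were higher and 3 lower. Cdh2, the N-cadherin gene, whose product can associate with FGF receptors, was at 10.40, 10.72 and 10.23 on Oral arrays and 9.39, 9.33 and 10.05 on Cranial arrays. It was at 8.20, 4.77 and 5.33 on Ventral arrays and 8.50, 7.86 and 5.18 on Dorsal arrays, a spread that left the head arrays above all of them. Flrt3, a membrane protein that binds FGF receptors, was 1.33 ± 0.10 higher, and its relative Flrt2 was lower, at -0.87 ± 0.14 (limma adjusted p = 7.03e-06 and 0.00113).

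Of 21 heparan sulfate genes, 4 were called higher and 1 lower in the contrast. Ext2, which builds the heparan sulfate chain, was 1.01 ± 0.12 higher, and Sdc3, a syndecan, 0.69 ± 0.13 higher. Gpc1, a glypican, was lower, at -0.94 ± 0.24 (limma adjusted p = 0.0125). In each of these lists the calls stand beside the 32.1% of all genes called in that contrast.

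**Figure D5:**
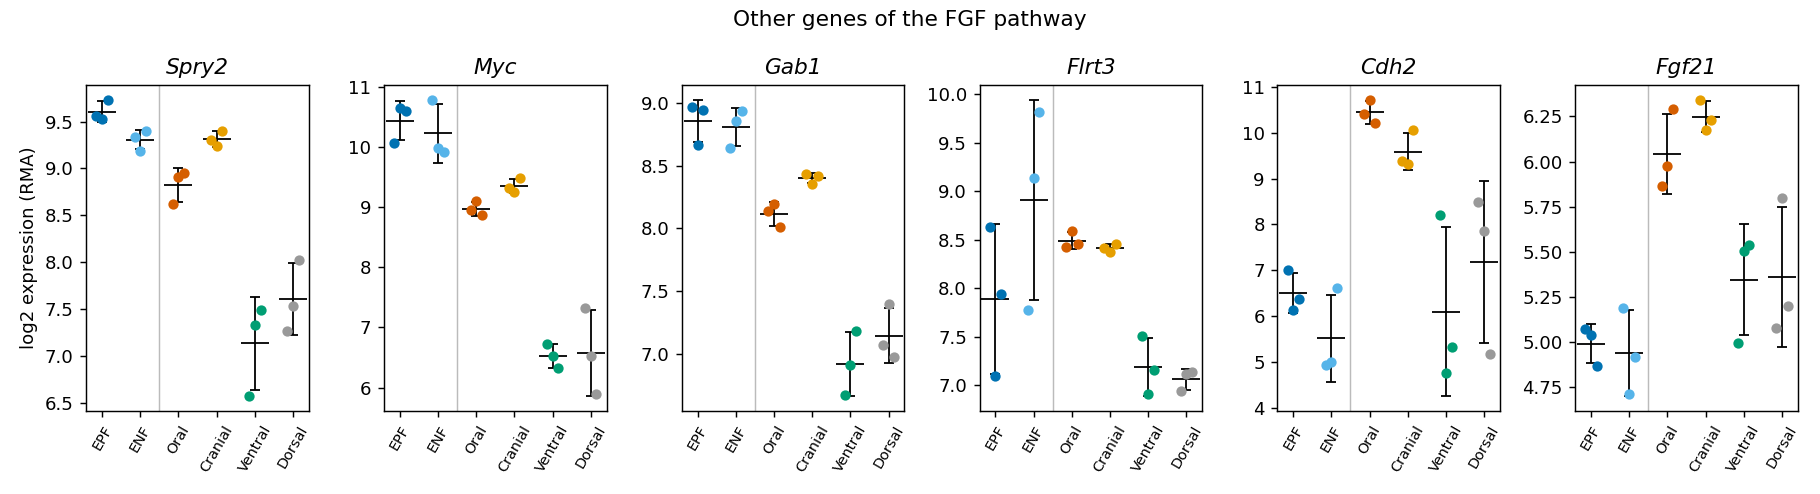
Log2 expression (y axis, own scale per panel) of 6 FGF pathway genes, Spry2, Myc, Gab1, Flrt3, Cdh2 and Fgf21, on the 18 arrays by group on the x axis; points are arrays and bars the mean ± SD of 3 arrays. In each panel all Oral and Cranial arrays lie above all Ventral and Dorsal arrays, for Spry2 from 8.62 upwards against 8.02 and below.

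For the 4 members whose site means spanned at least 1 on the log2 scale, the genes most like them over the 12 site arrays were sought among 2393 genes that spanned as much. For Fgf10 these were Socs3 (Pearson r = 0.99), Prr5l (0.98) and N6amt1 (0.97). For Fgf18 they were Ifitm2 (0.96), Git1 (0.96) and Plod1 (0.95), for Fgf9 Cnr1 (0.91), Axin2 (0.90) and Ccl7 (0.90), and for Fgf7 Grb14 (0.84), Ell2 (0.83) and Il6 (0.82). The arrays of a group share tissue, Cre line and sort, so these values largely restate which groups are high and low and are given as a description.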

How the data were processed

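RNA of sorted cells was hybridised to Affymetrix mouse genome arrays. The authors deposited log2 expression values, 1 column per array, made by RMA per the submitters' processing notes; neither the software versions nor the number of normalisation runs is given in the sources used here. Of 45101 probe sets, 64 were controls, 34945 carried 1 gene symbol in the platform annotation, 932 several and 9160 none. For each of 18193 genes the single-symbol probe set with the highest mean over 18 arrays was used, 9010 genes having more than 1. Groups came from sample titles. Differences were tested with limma 3.58.1 (lmFit, eBayes, R 4.3.3). A gene was called where its p, adjusted by Benjamini and Hochberg's method over the 18193 genes, was under 0.05. EPF and ENF were fitted on 6 arrays and the 4 sites on 12 arrays in 1 fit. The other probe sets of the members were tested in the same way in a fit of all single-symbol probe sets. The number of arrays limits the precision.

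The members and gene lists were chosen with earlier results of these data known. All members are named; of each pathway list up to 2 called genes with the largest difference per comparison and direction are named. For members whose site means spanned at least 1, the 3 genes with the highest Pearson r over 12 site arrays are named. Alternatives changed the probe set, filter, normalisation, fit and arrays. Replicate numbers were not taken to pair samples: in no comparison did all 3 same-numbered pairs correlate above 0.1 in their deviations, and the correlations ran from -0.38 (Oral and Cranial) to 0.30 (Cranial and Dorsal). The procedure was tested on simulated data.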

Additional observations from a re-analysis of the deposited data

How the results depend on the processing

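The number of members called in EPF against ENF and in Ventral against Dorsal was 0 in all 17 settings each. Fgf10 was called in 17 of 17 settings in Cranial against Dorsal, Oral against Ventral and Cranial against Ventral, in 16 of 17 in Oral against Dorsal (limma adjusted p = 0.0675 with only the 6 arrays of both groups) and in 22 of 22 in the contrast of Oral and Cranial with Ventral and Dorsal. Fgf18 was called in 22 of 22 settings of that contrast, with limma adjusted p up to 0.0493. Fgf10 and Fgf18 have 1 probe set each, so settings that change the probe set kept theirs. The 3 Fgf9 calls were lost with all 18 arrays in 1 fit and, as the report states, with the second Fgf9 probe set (0.02 in Oral against Cranial, -0.24 in Cranial against Dorsal and -0.37 in Cranial against Ventral), and the Fgfrl1 call in Oral against Dorsal in 10 of 17 settings. With all 18 arrays in 1 fit, 0 members were called in Oral against Cranial, 1 in Cranial against Dorsal and 1 in Cranial against Ventral. With only the 6 arrays of both groups, 4 were called in Oral against Cranial (1795 of all genes), 0 in Oral against Dorsal (1065), 3 in Oral against Ventral (4925) and 4 in Cranial against Ventral (6684). With array weights, 4 were called in Oral against Cranial (1926 of all genes), 6 in Cranial against Dorsal (10113), 3 in Oral against Ventral (7724), 6 in Cranial against Ventral (8854) and 7 in the contrast of head and trunk (11424). Oral against Ventral had 2 with dim genes left out, 2 with quantile normalisation repeated, 2 with arrays centred on their medians and 3 with trend and robust eBayes, while Oral against Dorsal had 1 with quantile normalisation repeated. Centring gave 5 in the contrast of head and trunk (10383 of all genes). Leaving out an array gave 1 to 2 in Oral against Dorsal and 2 to 5 in the contrast of head and trunk. The replicate block left 1 member called in Oral against Dorsal, where Fgfrl1 was lost, and changed no other count of members. Over all genes the count of calls ran from 4 to 460 in EPF against ENF (56 as reported), 111 to 1926 in Oral against Cranial (207), 0 to 952 in Ventral against Dorsal (5), 1242 to 10113 in Cranial against Dorsal (3393), 1065 to 8963 in Oral against Dorsal (3065), 1420 to 7724 in Oral against Ventral (2665), 1641 to 8854 in Cranial against Ventral (3251) and 4181 to 11424 in the contrast of head and trunk (5831). Differences that turned sign were not called in the reported fit: Fgf18 in EPF against ENF (-1.41 to 0.0755 with an array left out), Fgf7 in Cranial against Dorsal (-0.0766 to 0.885 likewise), Fgf7 in Oral against Dorsal (0.57 with array weights), and Fgfr2 with the probe set of largest SD (0.056 in Oral against Cranial, -0.24 in Cranial against Ventral). The causes were not tested.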

Other observations

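Further genes of the FGF system were called in single pairs of sites, which share arrays. Myc was the gene of the feedback and target list with the largest difference in all 4 pairs of a head and a trunk group, at 2.78 in Cranial against Dorsal, 2.40 in Oral against Dorsal, 2.45 in Oral against Ventral and 2.82 in Cranial against Ventral. Cdh2 was called at 3.27 in Oral against Dorsal, 4.35 in Oral against Ventral and 3.49 in Cranial against Ventral. Cbl, a ubiquitin ligase that turns receptors over, was higher in Cranial than in Dorsal, at 1.06 ± 0.33 (SE, limma adjusted p = 0.0443). Fgfbp3, a carrier protein that binds FGFs, was higher in Cranial than in Dorsal, at 1.08 ± 0.25 (limma adjusted p = 0.0130). Agrn and Sdc2, both heparan sulfate proteoglycans, were higher in Cranial than in Ventral, at 1.32 and 0.95. Fgfr4, the remaining kinase receptor, was lower in Cranial than in Dorsal at -0.40, in Oral than in Ventral at -0.44 and in Cranial than in Ventral at -0.63. Spred1, an inhibitor of the relay, was lower in Oral than in Dorsal, at -0.50.

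Dermal papilla genes, markers of the hair follicle cells that make Fgf7 and Fgf10, had a mean over 7 genes of 5.94 to 7.02 on EPF arrays, against 4.37 to 5.15 on ENF arrays, and none of the 7 was called by limma between these groups (5 had an unadjusted p under 0.05), nor was either ligand.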
